A study of Drosophila melanogaster with 12 samples.

Results

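The genes described here encode the core of insulin and TOR (target of rapamycin) signalling in the fly: the receptor InR, its adaptor chico, the kinases Pi3K92E, Akt and S6k, the transcription factor foxo, the inhibitors Tsc1 and gig, and the GTPase Rheb. They were chosen by name, as every probe set whose single current gene symbol is 1 of these 9. Of the 9 genes, 7 had a probe set, 1 each, among the 11982 genes that the 18769 probe sets other than controls name by a single symbol. Rheb and Pi3K92E were named by no probe set with a single symbol and are not analysed here. All 7 probe sets were bright enough to enter the test of 11261 probe sets, and all 7 lay above background in all 12 arrays.

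Male flies of the white-eyed strain w1118, aged 1 to 2 days at the start, were fed for 6 days on food with 0.25% yeast extract (YE), the restricted diet, or on food with 4% YE. The males gave whole-body extracts of about 100 flies each, which were separated on sucrose gradients into a high translation fraction (RNA carrying 5 or more ribosomes) and a low translation fraction (1 to 4 ribosomes). The 4 groups were the high fraction on 0.25% YE, the high fraction on 4% YE, the low fraction on 0.25% YE and the low fraction on 4% YE, with 3 biological replicates each, so that 12 arrays came from 6 gradients. All groups shared strain, sex and age, and each array was made from 100 ng of RNA.

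In insulin signalling, insulin-like peptides bind InR, which acts through chico and phosphatidylinositol 3-kinase to switch on Akt. Akt phosphorylates foxo and so keeps it out of the nucleus, where it otherwise drives genes of the fasting response, InR among them in flies. The complex of Tsc1 and gig (the fly Tsc2) holds back Rheb, the activator of TOR, and S6k is a kinase that TOR switches on and that promotes growth and protein synthesis. Lowered activity of this pathway is known to lengthen the life of flies, as restriction of dietary yeast is.

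The translational index used here subtracts, for each mRNA, the log2 level measured with few ribosomes from the level measured with many, so a positive index means that more of it was found with 5 or more ribosomes. Levels are intensities after quantile normalization, which gives every array the same distribution, so an index is relative to all other mRNAs and not to the absolute amount of RNA in a fraction. Log2 differences come from 1 limma model of all 12 arrays and are given with their standard error (SE, n = 3 per group). An adjusted p under 0.05 over all tested probe sets is a call.

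The arrays numbered 1 stood apart in every group. Within a group, the correlation of log2 intensities was 0.979 to 0.988 between replicates 2 and 3, but only 0.859 to 0.943 between replicate 1 and either of them. Arrays of the same number also departed from their group means together, as did arrays numbered 2 with those numbered 3. Values with the replicate number as a block, and without the arrays numbered 1, therefore stand beside the calls of the 7 genes that change with them. Without the arrays numbered 1, only replicates 2 and 3 of each group remain, which differ less from each other. In that setting 6953 probe sets were called for the index on 4% YE, against 3846 with all arrays. Its adjusted p values are therefore not comparable with those from all arrays. The material was whole males, in which all 6 testis markers and all 4 accessory gland markers lay above background in every array, and 0 to 2 of the 3 female yolk genes did. Because tissue was not separated, fewer cells of a type and less RNA per cell cannot be told apart.

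InR, Akt and S6k mRNAs were more abundant in the high than in the low fraction on 4% YE, and Akt and S6k also on 0.25% YE. Akt had the largest index of the 7 genes on both diets. Tsc1 was the 1 gene with a mean index below 0 on both diets, and foxo and gig passed the test on neither. For none of the 7 did the change of the index between diets pass the test.

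InR, the receptor tyrosine kinase at the head of the pathway, had normalized intensities of 347, 249.8 and 284 in the high fraction on 0.25% YE, against 239, 149.8 and 133 in the low fraction. On 4% YE it had 237, 166 and 165 in the high fraction, against 126, 74.1 and 74.4 in the low fraction. The fractions did not overlap on either diet, and replicate 1 was the brightest array of all 4 groups. The index of InR was 0.79 ± 0.29 on 0.25% YE, which missed the threshold (adjusted p = 0.069; 0.0049 with the replicate block). On 4% YE it was 1.07 ± 0.29, a 2.10-fold higher level in the high fraction (adjusted p = 0.013; 0.00055 with the block). That call was lost without replicate 2 (adjusted p = 0.054) or replicate 3 (0.059) of the low fraction on 4% YE, and the index on 0.25% YE was called without replicate 1 of its low fraction (1.04, adjusted p = 0.027). Scaling alone also turned the index on 0.25% YE into a call, with values as deposited (adjusted p = 0.043) and with median scaling (0.042). The median index of all tested probe sets was then 0.41 and 0.12, and InR lay 0.81 above each. Leaving out the arrays numbered 1 gave an index of 0.91 on 0.25% YE (adjusted p = 0.00025) and 1.15 on 4% YE (3.59e-05).

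chico, the insulin receptor substrate that links the receptor to the lipid kinase, had 260.0, 577 and 770.3 in the high fraction on 0.25% YE, against 213, 226 and 251 in the low fraction. On 4% YE the high fraction had 218, 400.1 and 395, against 107, 202 and 195 in the low fraction. Again the fractions did not overlap, but here replicate 1 was the dimmest array of each group. The indices were 1.08 ± 0.39 on 0.25% YE (adjusted p = 0.069; 0.0060 with the block) and 1.00 ± 0.39 on 4% YE (adjusted p = 0.068; 0.0059 with the block), so in the main fit neither was called. With values as deposited both were (adjusted p = 0.019 on 0.25% YE and 0.024 on 4% YE), and with median scaling that on 0.25% YE was (0.0455). As deposited, the median index of all tested probe sets was 0.41 on 0.25% YE and 0.32 on 4% YE. The indices of chico lay 1.155 and 1.04 above these medians. Both indices of chico were called without the arrays numbered 1, at 1.48 on 0.25% YE (adjusted p = 1.47e-05) and 1.00 on 4% YE (0.00018). Taken by replicate number, the index on 4% YE was nearly constant at 1.02, 0.98 and 1.01, while on 0.25% YE it was 0.29, 1.35 and 1.61. Leaving out replicate 1 of the high fraction on 0.25% YE gave calls on both diets, at 1.53 on 0.25% YE (adjusted p = 0.0073) and 1.00 on 4% YE (0.023), as did replicate 1 of the high fraction on 4% YE for the index on 4% YE (1.29, adjusted p = 0.039).

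Akt, the kinase that carries the signal from the membrane to foxo and to the Tsc1 and gig complex, had 344, 967 and 1004 in the high fraction on 0.25% YE, against 219.9, 272 and 308 in the low fraction. On 4% YE it had 375, 891 and 809 in the high fraction, against 123, 247 and 209.8 in the low fraction. All arrays of the high fraction exceeded all those of the low fraction on both diets, with replicate 1 the dimmest throughout. The index was 1.39 ± 0.45 on 0.25% YE (adjusted p = 0.044) and 1.80 ± 0.45 on 4% YE (adjusted p = 0.0089), which is 2.62-fold and 3.47-fold. Among all tested probe sets these indices stood at percentile 96.7 on 0.25% YE and 98.5 on 4% YE. The call on 4% YE was kept under all 18 alternatives, with adjusted p up to 0.042. That on 0.25% YE was lost under 10 of the 18: with no filter (adjusted p = 0.10) and without replicate 2 or 3 of the high fraction on 0.25% YE (0.18 and 0.16), replicate 2 or 3 of the high fraction on 4% YE (0.054 and 0.058), replicate 1, 2 or 3 of the low fraction on 0.25% YE (0.10, 0.096 and 0.055), or replicate 2 or 3 of the low fraction on 4% YE (0.054 and 0.060). The probe set of Akt has a suffix that Affymetrix gives to probes shared by several transcripts, and the annotation names 1 gene for it.

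foxo, the transcription factor that Akt restrains, had 116, 269 and 254 in the high fraction on 0.25% YE, against 101, 151 and 129 in the low fraction. On 4% YE it had 69.8, 230.3 and 274 in the high fraction, against 84.4, 138 and 133 in the low fraction. Replicates 2 and 3 were brighter in the high fraction on both diets, while in replicate 1 the difference was small on 0.25% YE and ran the other way on 4% YE, so the fractions overlapped. The indices of 0.67 ± 0.47 on 0.25% YE (adjusted p = 0.33) and 0.50 ± 0.47 on 4% YE (adjusted p = 0.44) were not called, with or without the block. Without the arrays numbered 1 they were 0.90 (adjusted p = 0.00036) and 0.88 (adjusted p = 0.00033), and leaving out only replicate 1 of the high fraction on 4% YE gave 1.11 there (adjusted p = 0.043).

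Tsc1, the scaffold of the complex that inhibits Rheb, had 315, 125 and 112 in the high fraction on 0.25% YE, against 716, 240.4 and 211 in the low fraction. On 4% YE the high fraction had 334, 169.7 and 196, against 435, 217 and 227 in the low fraction. Replicate 1 was the brightest array of every group, and within each replicate number the high fraction was dimmer than the low on both diets, although the groups overlapped. The index was -1.01 ± 0.51 on 0.25% YE (adjusted p = 0.18) and -0.31 ± 0.51 on 4% YE (adjusted p = 0.67). With the replicate block the index on 0.25% YE was called (adjusted p = 0.0044), from same-number indices of -1.18, -0.93 and -0.91, and that on 4% YE was not (adjusted p = 0.24). It was also called without replicate 1 of the high fraction on 0.25% YE (-1.48, adjusted p = 0.047).

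gig, the GTPase-activating partner of Tsc1, had 179, 183 and 193 in the high fraction on 0.25% YE, against 300.4, 144 and 108 in the low fraction. On 4% YE it had 218, 219.9 and 189.9 in the high fraction, against 208, 121 and 116 in the low fraction. The high fraction varied little between replicates, whereas replicate 1 of the low fraction was above both others on each diet. The indices were 0.14 ± 0.34 on 0.25% YE (adjusted p = 0.79) and 0.54 ± 0.34 on 4% YE (adjusted p = 0.23). Without the arrays numbered 1 they were 0.59 (adjusted p = 0.0095) and 0.78 (adjusted p = 0.0014). The mean indices of gig and Tsc1 had opposite signs on both diets, a difference that was not tested. Single arrays turned both signs: without replicate 3 of the low fraction on 0.25% YE the index of gig on this diet was -0.17, and without replicate 1 of the low fraction on 4% YE that of Tsc1 on 4% YE was 0.011.

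S6k, the kinase downstream of TOR, had 949.6, 956 and 1154 in the high fraction on 0.25% YE, against 281, 609.9 and 582 in the low fraction. On 4% YE it had 1153, 844 and 756 in the high fraction, against 199, 419.6 and 385 in the low fraction. No array of the low fraction reached the high fraction on either diet. The index was 1.13 ± 0.35 on 0.25% YE (adjusted p = 0.037) and 1.503 ± 0.35 on 4% YE (adjusted p = 0.0059), or 2.19-fold and 2.83-fold. Replicate 1 carried the largest share of it, with same-number indices of 1.75, 0.65 and 0.99 on 0.25% YE and 2.53, 1.01 and 0.97 on 4% YE, and without the arrays numbered 1 the indices were 0.82 and 0.99. The call on 4% YE held under all 18 alternatives, with adjusted p up to 0.025. On 0.25% YE it was lost under 6 of 18, namely with no filter (adjusted p = 0.078) and without replicate 2 or 3 of the high fraction on 0.25% YE (0.10 and 0.12), replicate 2 or 3 of the high fraction on 4% YE (0.054 and 0.0504) or replicate 1 of the low fraction on 0.25% YE (0.10).

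**Figure D1:**
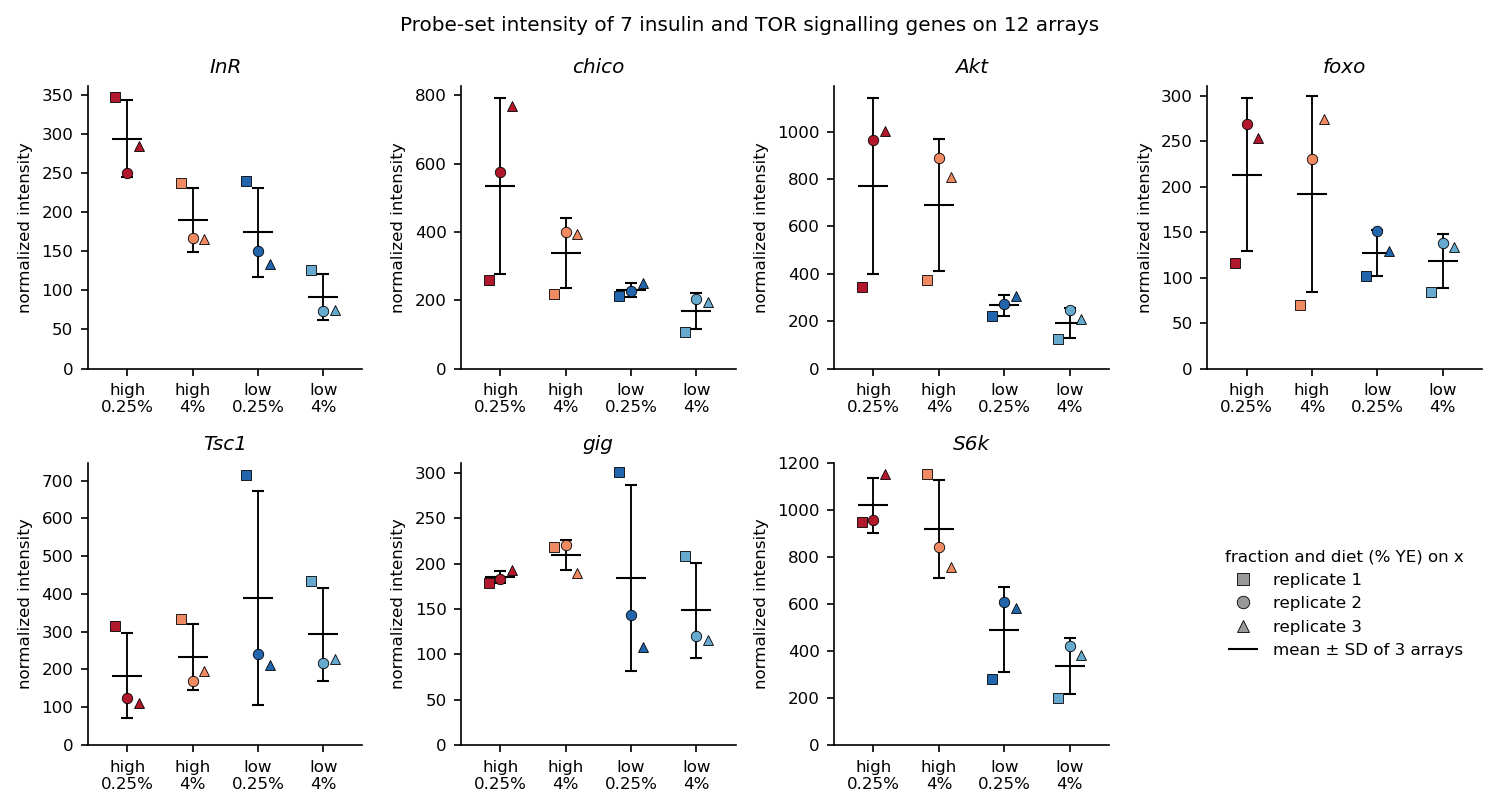
Normalized intensity of the 7 genes on 12 arrays, by fraction and diet; squares, circles and triangles are replicates 1, 2 and 3, and bars are the mean ± SD of 3 arrays. InR, chico, Akt and S6k are brighter in every array of the high fraction than in any of the low fraction on the same diet. Replicate 1 is the dimmest array of each group for chico, Akt and foxo and the brightest for InR and Tsc1.

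Counted over the genes, 2 of 7 had a higher level in the high fraction on 0.25% YE (9.66% of all tested probe sets did) and 3 of 7 on 4% YE (16.3%). None of the 7 was called lower, against 11.8% of all probe sets on 0.25% YE and 17.9% on 4% YE. With the replicate block 4 of 7 were higher on each diet, the same 4 genes InR, chico, Akt and S6k, against 16.8% of all probe sets on 0.25% YE and 22.8% on 4% YE, and Tsc1 was the 1 gene lower on 0.25% YE (18.1%). The high fraction did not overlap the low fraction in those 4 genes on either diet, which held for 16% of probe sets on 0.25% YE and 27.2% on 4% YE. Without the arrays numbered 1, 6 of 7 genes were higher on each diet (28.4% of all probe sets on 0.25% YE and 31.3% on 4% YE), and Tsc1 was lower on 0.25% YE (29.1%). The count also moved with the scaling of the arrays. On 0.25% YE it was 4 of 7, with InR and chico added, both with values as deposited (13% of all probe sets higher) and with median scaling (12.1%). The count on 4% YE was 4 of 7, with chico added, with values as deposited (16.6%) and 3 of 7 with median scaling (17.4%). The median index of the 7 genes was 0.79 on 0.25% YE and 1.00 on 4% YE, beside a median of 0.02 over all tested probe sets on each diet, and 6 of 7 indices were above 0 on each diet, beside 51% of all probe sets on 0.25% YE and 51.2% on 4% YE. With values as deposited, before the arrays were scaled, the split over all called probe sets moved to 92.2% higher on 0.25% YE (45.1% as normalized, 56.3% with median scaling) and to 77.8% higher on 4% YE (47.6% as normalized).

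**Figure D2:**
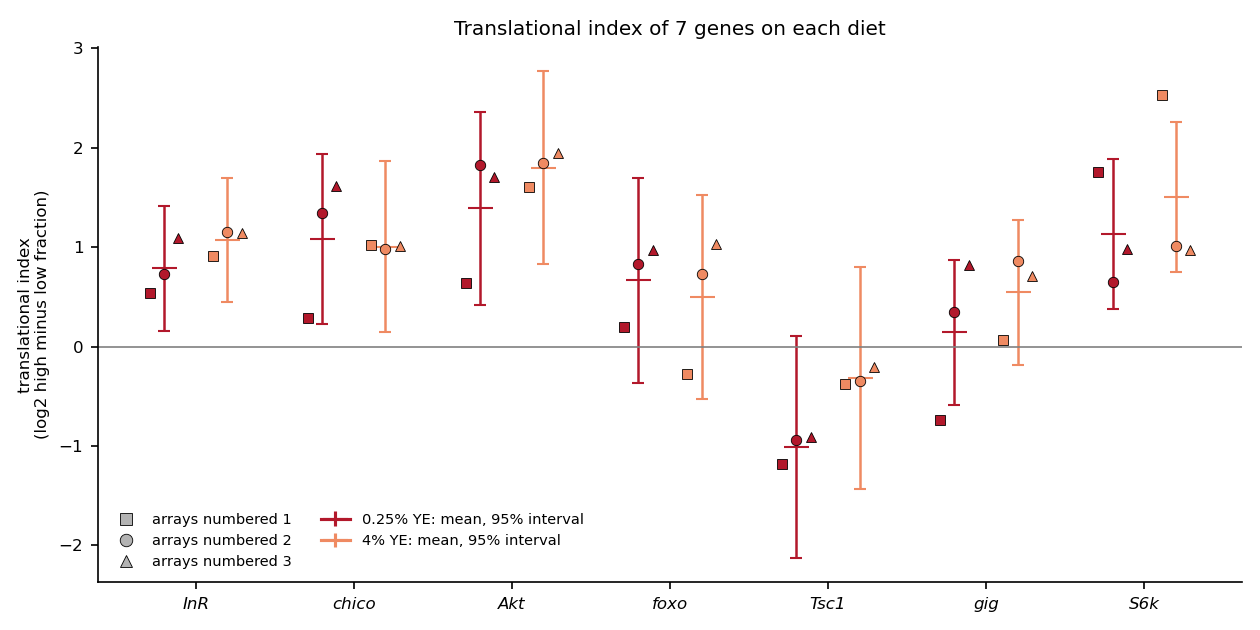
Translational index (log2 high minus low fraction) of the 7 genes on 0.25% YE and on 4% YE; horizontal ticks and bars are the limma estimate and its 95% interval without a block, and symbols are the differences between arrays of the same replicate number. The intervals of InR, chico, Akt and S6k lie above 0 on both diets, and those of foxo, Tsc1 and gig include 0. On 0.25% YE the symbol of number 1 is the lowest for every gene except S6k.

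Marker sums of testis and photoreceptors differed between the fractions, while those of the 4 accessory gland and 3 measured muscle markers overlapped between them on both diets. The accessory gland sums were 15440.1 to 17841 in the high fraction on 0.25% YE, against 16577 to 17361 in the low fraction, and 15054 to 18589 in the high fraction on 4% YE, against 16192 to 17844 in the low fraction. A sum can hide single markers that differ. Over all arrays SP ran from 1016 to 6065 and Acp36DE from 1980 to 8693, Acp26Aa from 2083 to 3066 and Acp53Ea from 4490 to 7511. Single markers were not compared between the fractions. Fat body sums overlapped between the fractions on 0.25% YE and not on 4% YE. Both these and the muscle sums are given with the diet comparison. The summed intensity of the 6 testis markers was 6233 to 8492 in the high fraction on 0.25% YE, against 11823 to 17192 in the low fraction, and 5341 to 6722 in the high fraction on 4% YE, against 9922 to 12276 in the low fraction. For 3 photoreceptor markers with a probe set, of 5, the sums ran the other way, at 10207 to 10940.3 in the high fraction on 0.25% YE, against 5832 to 7131 in the low fraction, and at 9759.7 to 10831 in the high fraction on 4% YE, against 4800.1 to 5959 in the low fraction. All of these markers with a probe set were above background in every array. Their part in the indices of the 7 genes was not tested.

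The comparison of diets asked how the level of each mRNA in a fraction differed after 6 days on 0.25% YE. InR had the largest difference of the 7 genes, with a higher level on 0.25% YE in both fractions and in every same-number pair. chico was higher in every same-number pair too, by amounts that varied more. None of the 7 genes passed the test in either fraction without the replicate block, and InR passed it with the block in the low fraction and averaged over fractions. The average counts both arrays of each gradient, so its p-values do not measure the spread between gradients.

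For InR, all 3 arrays on 0.25% YE exceeded all 3 on 4% YE in the high fraction (294 ± 49.2 and 189.7 ± 41.2, SD, n = 3 each) and in the low fraction (174 ± 57.1 and 91.3 ± 29.6). The difference was 0.64 ± 0.29 in the high fraction (95% interval 0.01 to 1.26, adjusted p = 0.36; 0.057 with the block) and 0.92 ± 0.29 in the low fraction (0.30 to 1.55, adjusted p = 0.23; 0.014 with the block). Same-number differences were 0.55, 0.58 and 0.78 in the high fraction and 0.93, 1.01 and 0.83 in the low fraction, so the differences between arrays of 1 number varied less than the levels did. Averaged over the fractions the difference was 0.78 ± 0.20, or 1.72-fold (adjusted p = 0.054; 0.0022 with the block, 95% interval 0.52 to 1.03), at percentile 98.8 of all tested probe sets. It was called without replicate 1 of the low fraction on 4% YE (0.90, adjusted p = 0.028) and without replicate 3 of the low fraction on 0.25% YE (0.86, adjusted p = 0.049). Without the arrays numbered 1 it was called in the high (0.68, adjusted p = 0.0073) and low fractions (0.92, adjusted p = 0.0019) and averaged (0.80, adjusted p = 0.00017).

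chico averaged 536 ± 258 on 0.25% YE and 338 ± 103 on 4% YE in the high fraction, where the diets overlapped. In the low fraction it averaged 230.2 ± 19.5 on 0.25% YE and 168 ± 52.9 on 4% YE, with no overlap. The differences of 0.58 ± 0.39 in the high fraction (adjusted p = 0.61) and 0.50 ± 0.39 in the low fraction (adjusted p = 0.81) were not called, nor was their average of 0.54 ± 0.28 (adjusted p = 0.39; 0.077 with the block). Same-number differences were 0.25, 0.53 and 0.96 in the high fraction and 0.98, 0.16 and 0.36 in the low fraction. Without the arrays numbered 1, chico was called in the high fraction (0.74, adjusted p = 0.0069) and averaged (0.50, adjusted p = 0.0073).

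S6k differed by 0.54 ± 0.35 in the low fraction (adjusted p = 0.74), with close same-number differences of 0.50, 0.54 and 0.60, and by 0.17 ± 0.35 in the high fraction (adjusted p = 0.91), where the same-number differences were -0.28, 0.18 and 0.61. Without the arrays numbered 1 S6k was called in the low fraction (0.57, adjusted p = 0.026) and averaged (0.48, adjusted p = 0.0043). Akt differed by 0.51 ± 0.45 in the low fraction (adjusted p = 0.83) and by 0.10 ± 0.45 in the high fraction (adjusted p = 0.96). foxo differed by 0.11 ± 0.47 in the low fraction and by 0.28 ± 0.47 in the high fraction, and neither was called. For Tsc1 the difference was -0.44 ± 0.51 in the high fraction (adjusted p = 0.81; called without the arrays numbered 1, at -0.62, adjusted p = 0.013) and 0.25 ± 0.51 in the low fraction (adjusted p = 0.95). For gig it was -0.18 ± 0.34 for the high fraction and 0.23 ± 0.34 for the low fraction, with the diets overlapping in both. The 95% intervals of Akt, foxo and Tsc1 in the high fraction spanned -0.87 to 1.07, -0.75 to 1.31 and -1.56 to 0.67, so a difference in either direction lay within them at this number of arrays.

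By count, 0 of 7 genes were called in the high fraction (limma called 0.533% of all probe sets higher and 1.23% lower) and 0 of 7 in the low fraction (0.0977% higher and 0.87% lower). At an unadjusted p under 0.05 there was 1 gene of 7, InR, in each fraction, beside 13.6% of all probe sets for the high fraction and 9.01% for the low fraction. With the replicate block the count was 0 in the high fraction (1.89% of all probe sets higher) and 1 in the low fraction (0.453%). Averaged over fractions, limma called 0 of 7, beside 1.23% of all probe sets higher and 2.9% lower. InR alone had an unadjusted p under 0.05 there (15.7% of all probe sets), and was the 1 call with the block (3.19% higher). InR in the high fraction, and InR and chico in the low fraction, were higher with no overlap between diets, which held for 11.8% of probe sets for the high fraction and 8.63% for the low fraction. In all 6 same-number pairs of both fractions, InR and chico were higher, as were 8.7% of all probe sets. The median difference of the 7 genes was 0.17 for the high fraction and 0.50 for the low fraction, beside 0.02 and 0.03 over all probe sets. All 7 were above 0 in the low fraction, where 54.2% of all probe sets were, and 5 of 7 in the high fraction, where 52% were. With the arrays numbered 1 left out, InR and chico were called higher in the high fraction (11.5% of all probe sets) and Tsc1 lower (10.7%), InR and S6k higher in the low fraction (3.53%), and InR, chico and S6k higher averaged over fractions (11.9%). The share of higher probe sets among all those called in the high fraction was 30.3%, and 12.5% with values as deposited.

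**Figure D3:**
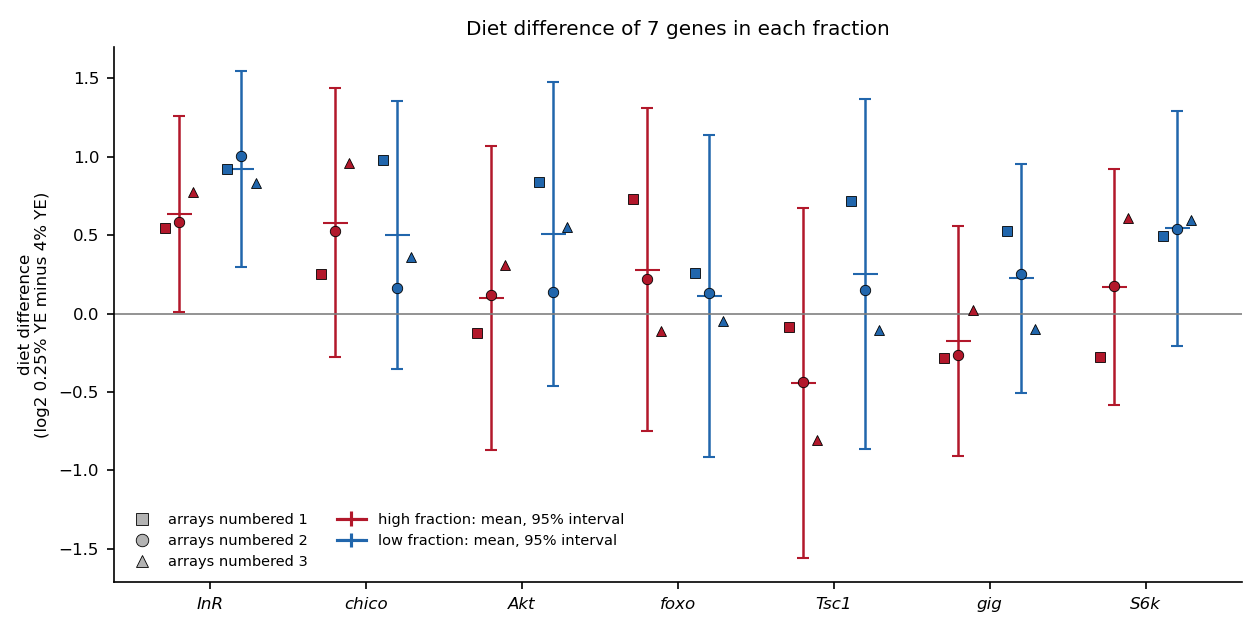
Diet difference (log2 0.25% YE minus 4% YE) of the 7 genes in each of the 2 fractions, the high fraction on the left of each pair; horizontal ticks and bars are the limma estimate and its 95% interval without a block, and symbols are the differences between arrays of the same replicate number. The 6 symbols of InR lie between 0.55 and 1.01 and those of chico between 0.16 and 0.98, while for Akt, foxo, Tsc1, gig and S6k the symbols of at least 1 fraction fall on both sides of 0.

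Marker sums of the fat body, the fly's main nutrient store, and of muscle differed between the diets. The 4 fat body markers summed to 4808 to 7751 on 0.25% YE and 12394 to 14567 on 4% YE in the high fraction, and to 4436 to 5288 on 0.25% YE and 9457 to 10232 on 4% YE in the low fraction, with 1 or 2 of the 4 above background in each array. Of these, Fbp1 was at or below 0 in 10 of 12 arrays and Fbp2 was above background in 0, so the sums are those of apolpp, at 4419 to 7569 over all arrays, and of Lsp2, a storage protein, at 15.1 to 6989.9. For 3 muscle markers with a probe set, of 4, the sums were 4920.1 to 5783 on 0.25% YE and 2963 to 3340.3 on 4% YE in the high fraction, without overlap, and 3136 to 5133 on 0.25% YE and 3040 to 4191 on 4% YE in the low fraction, with overlap. All 3 muscle markers were above background in every array. Their part in the higher InR and chico levels was not tested.

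The change of the translational index between diets asks whether an mRNA moved between the fractions on 0.25% YE relative to 4% YE. None of the 7 genes was called, and 0 of 7 reached an unadjusted p under 0.05 in limma, beside 4.3% of all tested probe sets. limma called 1 probe set of all those tested, 0.00888%. The 7 changes ran from -0.70 ± 0.73 for Tsc1 to 0.17 ± 0.67 for foxo, with a median of -0.37 beside -0.02 over all probe sets. The change of Tsc1 stood at percentile 4.68 of all probe sets, and its 95% interval of -2.28 to 0.88 includes 0. With the replicate block Tsc1 had an unadjusted p of 0.036 and an adjusted p of 0.60. For Akt, S6k and gig the changes were -0.41 ± 0.63, -0.37 ± 0.49 and -0.40 ± 0.48, for InR -0.28 ± 0.41 and for chico 0.08 ± 0.56.

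Replicate 1 departed from the other replicates in a direction that differed between the genes. The departure from the mean of replicates 2 and 3 was negative in all 4 groups for chico (-1.35 to -0.16), Akt (-1.52 to -0.39) and foxo (-1.83 to -0.46), and positive in all 4 groups for InR (0.38 to 0.76) and Tsc1 (0.87 to 1.66). For gig and S6k the departure depended on the fraction: gig was at 1.26 and 0.81 in the low fraction on 0.25% and 4% YE and at -0.07 and 0.10 in the high fraction, and S6k was at -1.08 and -1.01 in the low fraction and at -0.15 and 0.53 in the high fraction. Over all tested probe sets the median size of this departure was 0.35 to 0.56 by group, against 0.13 to 0.21 for the difference between replicates 2 and 3. What the replicate number stands for is not given in the sources used here.

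**Figure D4:**
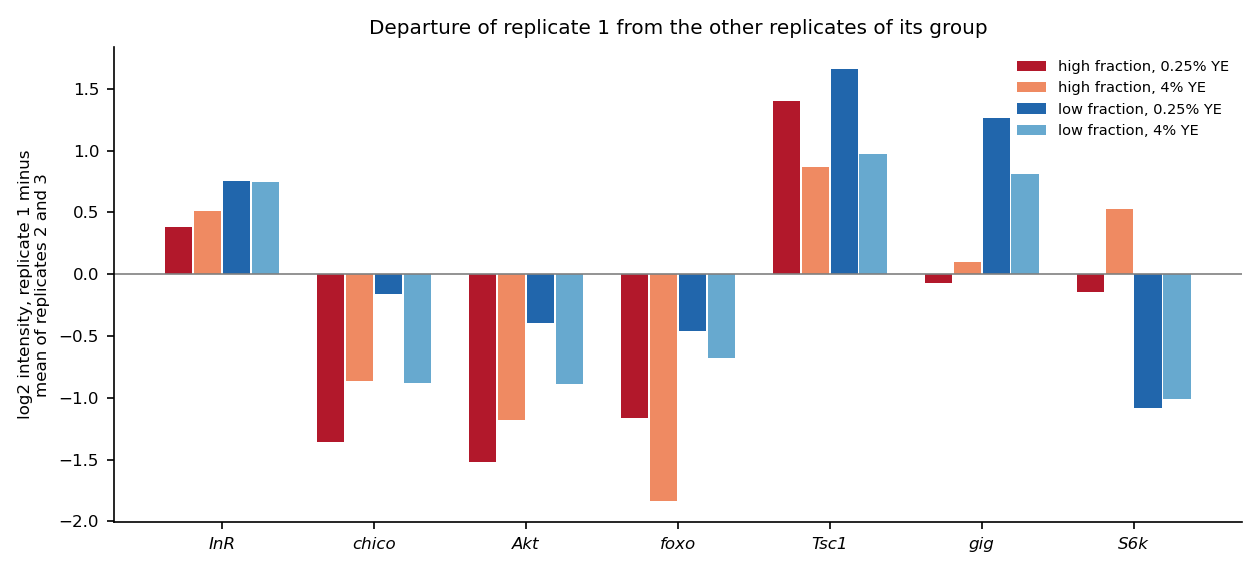
Log2 intensity of replicate 1 minus the mean of replicates 2 and 3 for the 7 genes in the 4 groups, as bars from 0. Bars of chico, Akt and foxo are below 0 in every group, those of InR and Tsc1 above 0 in every group, and those of gig and S6k differ between the fractions.

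The wider pathway was described with 58 further genes in 5 lists, from the insulin-like peptides to the outputs of TOR. Of these, 41 had a probe set with 1 symbol and 36 had one that was tested. Each gene is given by its brightest tested probe set, and any other probe sets of it are not shown. On 0.25% YE 6 of 36 were called higher in the high than in the low fraction and 2 lower, and on 4% YE 8 were higher and 4 lower. Of all tested probe sets, 9.66% were higher and 11.8% lower on 0.25% YE, and 16.3% were higher and 17.9% lower on 4% YE. With the block there were 9 higher and 6 lower on 0.25% YE, and 11 higher and 6 lower on 4% YE, beside 16.8% of all probe sets higher and 18.1% lower on 0.25% YE, and 22.8% higher and 22.5% lower on 4% YE. The median index of the 36 genes was 0.04 on 0.25% YE and 0.02 on 4% YE.

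Of all probe sets, 9.66% were called higher in the high fraction on 0.25% YE and 16.3% on 4% YE. The counts of the separate lists, each of few genes, stand beside these shares. Among genes that act around the receptor and Akt, 3 of 5 tested were higher in the high fraction on both diets. They were wdb, a regulatory subunit of the phosphatase PP2A (0.69 ± 0.21 on 0.25% YE, adjusted p = 0.033; 1.10 ± 0.21 on 4% YE, adjusted p = 0.0019), and 14-3-3epsilon and 14-3-3zeta, adaptors that bind phosphorylated proteins such as foxo. The index of 14-3-3zeta was 1.58 ± 0.41 on 0.25% YE (adjusted p = 0.020) and 1.27 ± 0.41 on 4% YE (adjusted p = 0.031), and that of 14-3-3epsilon 1.11 ± 0.35 on 0.25% YE (adjusted p = 0.042) and 1.15 ± 0.35 on 4% YE (adjusted p = 0.024). Among ligands and binding proteins 1 of 4 was called, Sdr, a secreted decoy that binds insulin-like peptides, with indices of 1.24 ± 0.28 on 0.25% YE (adjusted p = 0.012) and 0.90 ± 0.28 on 4% YE (adjusted p = 0.028). Sdr was dim, with 1 of 3 arrays of the low fraction on 0.25% YE above background. None of 4 genes of the TOR complexes was called on either diet in the main fit. With the block Lst8, a subunit that both TOR complexes share, was called lower in the high fraction (-0.93, adjusted p = 0.029 on 0.25% YE; -0.81, adjusted p = 0.040 on 4% YE), and was chosen after its values were seen. The kinase itself, mTor, chosen after its values were seen, had indices of 0.47 ± 0.26 on 0.25% YE (adjusted p = 0.22) and 0.58 ± 0.26 on 4% YE (adjusted p = 0.11). mTor was called on both diets without the arrays numbered 1, at 0.66 on 0.25% YE (adjusted p = 0.0040) and 0.88 on 4% YE (0.00049).

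Among 15 genes of amino acid and energy sensing, calls went both ways. Lamtor4 and Lamtor3, subunits of the lysosomal scaffold on which TOR is activated, were lower in the high fraction, with indices of -1.43 ± 0.28 on 0.25% YE (adjusted p = 0.0059) and -1.995 ± 0.28 on 4% YE (adjusted p = 0.00044) for Lamtor4, and -0.75 ± 0.20 on 0.25% YE (adjusted p = 0.023) and -1.32 ± 0.20 on 4% YE (adjusted p = 0.00067) for Lamtor3. Nprl2, a subunit of a complex that holds back the Rag GTPases, named here after its values were seen, was lower on 4% YE (-1.24, adjusted p = 0.023). The amino acid transporter slif was higher in the high fraction on both diets (0.85 ± 0.24 on 0.25% YE, adjusted p = 0.029; 1.04 ± 0.24 on 4% YE, adjusted p = 0.0066), and the transporter path on 4% YE (1.21 ± 0.22, adjusted p = 0.0016). With values as deposited Lamtor3 was called on neither diet (adjusted p = 0.74 on 0.25% YE and 0.059 on 4% YE), and Lamtor4 was not called on 0.25% YE (adjusted p = 0.16). In that setting the median index of all tested probe sets had itself moved up, to 0.41 on 0.25% YE and 0.32 on 4% YE.

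Of 8 outputs of the pathway, 3 were called for an index on 4% YE, where 34.2% of all probe sets were called in either direction, and 1 on 0.25% YE (21.4%). REPTOR, a transcription factor that TOR holds in the cytoplasm, was higher in the high fraction on both diets (1.17 ± 0.29 on 0.25% YE, adjusted p = 0.015; 1.19 ± 0.29 on 4% YE, adjusted p = 0.0077). Atg13, a subunit of the kinase complex that starts autophagy, was higher on 4% YE (0.82 ± 0.22, adjusted p = 0.014). REPTOR-BP, the binding partner of REPTOR, was lower in the high fraction on 4% YE (-0.80 ± 0.18, adjusted p = 0.0059) but not on 0.25% YE (-0.05 ± 0.18, adjusted p = 0.86). With values as deposited the index on 4% YE was -0.47 and not called (adjusted p = 0.36). In that setting the median index of all tested probe sets on 4% YE had itself moved up, to 0.32. The change of the REPTOR-BP index between diets, 0.75 ± 0.26, was not called (adjusted p = 0.99).

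The index calls of wdb, Lamtor4, path, slif and REPTOR on 4% YE held under all 18 alternatives. Those of Sdr, 14-3-3epsilon, 14-3-3zeta and Atg13 on 4% YE were each lost without some single array of that diet (adjusted p of 0.056 to 0.11). On 0.25% YE, leaving out replicate 2 or replicate 3 of the high fraction ended the calls of Sdr, wdb, 14-3-3epsilon, 14-3-3zeta, Lamtor3, slif and REPTOR alike (adjusted p of 0.054 to 0.16), and that of Lamtor4 was kept. The call of 14-3-3epsilon was lost on both diets with median scaling (adjusted p = 0.076 on 0.25% YE and 0.070 on 4% YE) and with no filter (0.11 and 0.072), and that of 14-3-3zeta with no filter (0.052 and 0.076). The call of wdb on 0.25% YE was lost with values as deposited (0.056), and that of Lamtor3 on 0.25% YE with median scaling (0.091).

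REPTOR-BP was the 1 gene of the 36 called between diets within a fraction. Of all tested probe sets, 0.533% were called higher and 1.23% lower in the high fraction. In the low fraction these shares were 0.0977% and 0.87%. REPTOR-BP had 1666, 1236 and 1213 on 0.25% YE, against 680.2, 753 and 736 on 4% YE, in the high fraction. In the low fraction it had 1190.4, 1636 and 1431 on 0.25% YE, against 1239, 1284 and 1249 on 4% YE. The diets did not overlap in the high fraction and overlapped in the low fraction. The difference in the high fraction was 0.91 ± 0.18, or 1.88-fold (adjusted p = 0.028), and with values as deposited it was not called (adjusted p = 0.49). Leaving out any array of the high fraction on either diet, or replicate 2 or 3 of the low fraction on 4% YE, also ended that call, with adjusted p of 0.051 to 0.10.

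Averaged over fractions 1 gene of 36 was called higher on 0.25% YE, REPTOR-BP (0.54 ± 0.13, adjusted p = 0.038; lost under 12 of 18 alternatives), and 1 lower, Ilp5. Of all tested probe sets, 1.23% were called higher and 2.9% lower in this average. Its p-values count both arrays of each gradient and do not measure the spread between gradients. Ilp5 encodes an insulin-like peptide of the insulin-producing neurons of the brain. It had 71.3, 55.2 and 78.4 on 0.25% YE, against 80.8, 96.4 and 92.7 on 4% YE, in the high fraction. In the low fraction it had 51.4, 51.3 and 80.3 on 0.25% YE, against 117, 124 and 99.0 on 4% YE. All arrays on 0.25% YE lay below all those on 4% YE in both fractions. The averaged difference was -0.66 ± 0.16 (adjusted p = 0.041), and the call was lost under 13 of 18 alternatives, with adjusted p up to 0.55, among them leaving out any array other than replicates 1 and 3 of the low fraction on 0.25% YE. The 2 measured markers of the insulin-producing neurons, Ilp5 among them, summed to 215 to 262 on 0.25% YE and 196 to 262 on 4% YE in the high fraction, and to 51.4 to 219 on 0.25% YE and 234 to 265 on 4% YE in the low fraction. The sum of 51.4 was the Ilp5 value of replicate 1 alone, as the other marker, Ilp2, was at or below 0 in that 1 array. Of these 2, 1 or 2 were above background in the low fraction on 0.25% YE and both in the other groups, and their part in the Ilp5 difference was not tested.

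Across the 12 arrays, the genes whose log2 intensities ran most like those of each member were found by Pearson's r. These values describe 12 points that share fractions, diets and replicate numbers. InR ran most like CG7912 (r = 0.945) and the protein kinase gene for (0.945), and over the 8 arrays without replicate 1 the values were 0.949 and 0.990. chico ran most like lap (0.983) and EndoA (0.980), and Akt most like alpha-Cat (0.990) and Lamp1 (0.989). For foxo they were CG40470 and myo (0.967 each), for Tsc1 stc (0.982) and stmA (0.980), for gig brm (0.963) and Crag (0.960), and for S6k rdgB (0.970) and Klc (0.967). Without replicate 1 the values, in the same order, were 0.985 and 0.991 for chico and 0.993 and 0.993 for Akt. They were 0.943 and 0.924 for foxo, 0.966 and 0.933 for Tsc1, 0.959 and 0.990 for gig, and 0.975 and 0.897 for S6k.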

How the data were processed

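The 12 Affymetrix arrays, hybridised in 1 colour, gave an intensity for each probe set, on a linear scale in the deposited table. How the authors summarised probes and whether they scaled the arrays is not given in the sources used here. The medians of the deposited intensities ran from 38.7 to 93.9 between arrays, and 9.51% to 13.8% of values were below 0, so the arrays still needed scaling. Quantile normalization was followed by a floor at 0 and by log2(value + 1). Probe sets whose mean fell in the lowest 40% (below 23.7) were left out. The 100 controls were not tested. Background is the array's 95th percentile of the controls (13.8 to 24.6), which 59.0% to 66.4% of probe sets exceeded.

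The platform annotation gave 1 symbol for 13647 probe sets, several for 402 and none for 4720, and 13544 single symbols were found in the gene table. Only probe sets with 1 symbol were named.

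One limma model (limma 3.58.1, R 4.3.3; lmFit and eBayes with an intensity trend) with a mean per group had 8 residual degrees of freedom. Every p is two-sided, and adjusted p values are Benjamini-Hochberg over the 11261 tested probe sets of each of 6 contrasts. The procedure was tested on simulated data.

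Deviations from the group means correlated between arrays of the same replicate number in all 12 pairs (0.166 to 0.669). Pairs of number 2 with number 3 also correlated, at 0.015 to 0.577, and pairs of number 1 with another number were all negative. With replicate 1 apart, deviations from a mean of 3 arrays draw replicates 2 and 3 together. These values therefore cannot show that numbers 2 and 3 pair the arrays, and the block takes that pairing as an assumption. The numbers come from the sample titles. The fit with the number as a block had 6 residual degrees of freedom. The number of arrays, 3 per group, limits the precision. p-values measure the spread between arrays of a group, from biological replicates of about 100 flies each. The fits treated the 2 fractions of a gradient as independent, so a diet difference averaged over fractions counts both arrays of each gradient. Its p-values therefore do not measure the spread between gradients.

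The members and the gene lists were chosen with earlier results of these data known. From each list up to 4 called genes of smallest p per contrast were named, and for likeness the 2 genes with the highest r. In the list of TOR complexes the kinase is entered by its current symbol, mTor. Alternatives were the values as deposited, median scaling, a pseudocount of 16, no filter on low values, the block, leaving out each of the 12 arrays and leaving out all arrays numbered 1. Protein lengths and sequences were not used here.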

Additional observations from a re-analysis of the deposited data

How the results depend on the processing

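Medians over all tested probe sets moved with the values as deposited to 0.41 for the index on 0.25% YE, 0.32 for the index on 4% YE, and 0.21 (high fraction), 0.14 (low fraction) and 0.18 (averaged) for the diet differences. Median scaling moved that of the index on 0.25% YE to 0.12. The indices of InR, chico, Akt and S6k stayed above these medians under both scalings. Counts of called probe sets were 1584 as deposited, 3932 with the replicate block and 752 to 6475 with arrays left out for the index on 0.25% YE (2412 in the main result), and 2397 as deposited and 2614 to 6953 with arrays left out for the index on 4% YE (3846). Counts of diet differences under the same 3 settings were 40, 476 and 61 to 2497 (high fraction, 198 in the main result), 42, 254 and 45 to 896 (low fraction, 109), and 158, 881 and 261 to 2508 (averaged, 465). For the change of the index (1) they were 0 with a pseudocount of 16, 4 without the filter and 0 to 7 with arrays left out. Leaving out the arrays numbered 1 gave the highest count of each of the 6. With no filter, 23.8% of calls in the low fraction and 40.8% in the high fraction were higher, against 10.1% and 30.3%. With median scaling 18.6% of averaged calls were higher, against 29.7%.

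The replicate block changed the calls of InR, chico and Tsc1 given above and, in the wider lists, added Pdk1, Lst8, Iml1, Sesn, scyl, Atg13, Lk6 and unk for at least 1 comparison. It changed no other call of a named gene.

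Differences that changed sign were all uncalled. As deposited, Tsc1 had an index of 0.0056 on 4% YE and an averaged diet difference of 0.041, and gig a difference of 0.063 in the high fraction, but relative to the shifted medians of all probe sets these were -0.32, -0.14 and -0.15, the sign of the main result. With arrays left out, the change of the index ran from -0.25 to 0.53 for chico, -0.80 to 0.099 for Akt, -0.44 to 0.55 for foxo and -0.71 to 0.019 for gig. Diet differences in the high fraction ran from -0.29 to 0.61 for Akt and -0.33 to 0.67 for foxo. Those in the low fraction ran from -0.11 to 0.27 for foxo, -0.30 to 0.58 for Tsc1 and -0.19 to 0.54 for gig. Averaged, they ran from -0.11 to 0.39 for foxo, -0.37 to 0.068 for Tsc1 and -0.18 to 0.18 for gig. The index of gig on 0.25% YE ran from -0.17 to 0.59, and that of Tsc1 on 4% YE from -0.60 to 0.011. The cause of the changes with arrays left out was not tested.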
